A study of Mus musculus with 12 samples.

Results

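Cytosolic ribosomal protein genes were followed in peritoneal lavage cells of C57BL/6J mice, the mixed cells washed out of the abdominal cavity. They were taken as all gene symbols that begin with Rpl, Rps or Rplp followed by a digit, without the Rps6k kinases and symbols that end as pseudogenes. Of 21851 gene symbols, 99 matched that start, 10 were kinases and 2 had a pseudogene ending, which left 87 genes. By their known roles they were 43 large-subunit proteins, 30 small-subunit proteins, 3 proteins of the P stalk, 10 paralogs or retrocopies of these, and Rps19bp1, a nuclear protein that binds a ribosomal protein and is none itself. The first 3 classes, 76 genes, are called core genes here.

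The mice were wild type or lactoferrin (Ltf) knockout and had been injected into the peritoneal cavity with PBS or lipopolysaccharide (LPS), the outer-membrane component of Gram-negative bacteria that Toll-like receptor 4 detects. Each of the 4 groups (wild type with PBS, wild type with LPS, knockout with PBS, knockout with LPS) had 3 libraries of total RNA, 12 in all, and the question was what lactoferrin loss does during acute inflammation. The labels used here give no age, LPS dose or time after injection, and do not say whether animals were pooled. Because nothing states that the libraries came from separate animals, p-values measure the spread between these libraries only.

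A cytosolic ribosome holds 1 copy of most of its proteins, so cells make the messages of these genes in roughly matched amounts. They are among the most abundant messages in most cells. Many of these mRNAs begin with a C followed by a stretch of C and T (U in the RNA), the 5′ terminal oligopyrimidine tract. Through this tract mTORC1 and the RNA-binding protein Larp1 control their translation and stability, so that ribosome output can change without a change in message level. Assembly of the subunits takes place largely in the nucleolus and needs a separate set of factors, many of them targets of the transcription factor Myc.

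The starts of some of the genes described below are given with their runs of C and T. The lines give 15 bases before and 15 bases from the annotated start, 5′ to 3′ on the gene's strand, from RefSeq on GRCm38.p6, with the longest run of C and T in capitals. They are shown because these genes rose with LPS (Rpl24, Rpl7a, Rpl22l1), form a parent and retrocopy pair (Rps27, Rps27rt), or vary in an unusual way (Rps18).
Rpl7a (chr2:26910792-26910821, plus strand): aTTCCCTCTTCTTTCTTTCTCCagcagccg
Rpl22l1 (chr3:28805493-28805522, plus strand): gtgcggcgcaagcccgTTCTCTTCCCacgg
Rpl24 (chr16:55966260-55966289, plus strand): agaaagCTgttgctaggaaacagactgggc
Rps27 (chr3:90213634-90213663, minus strand): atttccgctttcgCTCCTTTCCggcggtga
Rps27rt (chr9:114982725-114982754, minus strand): agaacttaTCCCTTgctttccggcggtgac
Rps18 (chr17:33955651-33955680, minus strand): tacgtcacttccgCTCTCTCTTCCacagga
Rpl7a had a run of 21 bases, Rps18 of 11, Rpl22l1 of 10, Rps27 of 9 and Rps27rt of 6, while the longest run at the listed start of Rpl24 was 2. Rpl27, Rpl7l1 and Rps19bp1, which also rose in wild type and are not printed, had longest runs of 5, 2 and 3. Starts were listed for 67 of the 87 genes. A run of at least 8 C or T on the gene's strand lay in this 30-base window in 28 of the 67 (41.8%), against 3760 of 27025 genes in the whole table (13.9%) and 1099 of 7666 tested genes that are not ribosomal proteins by this rule (14.3%). Such a run may lie anywhere in the window, so it describes these letters near an annotated start and shows no use of it in these cells. The 300-base windows of Rps27rt and Rps27 shared an identical run of 38 bases. Rps27rt has 1 exon against up to 5 in a coding transcript of Rps27, as retrocopies, which are made from a spliced message, do.

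Values are taken as FPKM, fragments scaled to transcript length and to the size of the library, as deposited. Library totals ranged from 343874 to 388129 FPKM, and 13921 to 14574 genes were above 0 in a library. Read depth is unknown, so no counting interval can be given. Ltf itself read 1.16 to 1.89 FPKM in wild type with PBS and 0.183 to 0.258 FPKM in knockout with PBS. With LPS it read 0.176, 1.33 and 0.275 FPKM in wild type and 0.0699 to 0.117 FPKM in knockout. Genotypes did not overlap within a treatment, but of the wild-type LPS libraries 1 lay below and 1 just above the range of the knockout PBS libraries. Summed markers of monocytes, B cells and T cells were lower with LPS in both genotypes, without overlap. The sums of the other cell types overlapped between treatments in the knockout. In wild type all of these but the neutrophil sum overlapped too. Neutrophil markers (12 genes, such as S100a8 and Cxcr2) summed to 2309 to 3782 FPKM in wild type with PBS, 1447 to 1977 with LPS, 1697 to 3610 in knockout with PBS and 1661 to 5203 with LPS. Of the 12, 10 fell and 1 rose with LPS in wild type, and 3 fell and 1 rose in the knockout. Among all genes 37.4% and 33.3% fell, and 24.8% and 19.9% rose. None of the 12 was called between genotypes under LPS or in the interaction of genotype and LPS. In that interaction 8 had an unadjusted limma p under 0.05, against 946 of all 9841 genes. Macrophage markers (12 genes, such as Adgre1 and Timd4) summed to 2213 to 3191, 2655 to 3327, 3304 to 6217 and 3491 to 4336 FPKM in the same order. Of the 11 tested, 2 rose and 5 fell with LPS in wild type, and 1 rose and 7 fell in the knockout. That is 63.6% and 72.7% called, against 62.2% and 53.2% of all genes. With 8 and 10 of the 11 log2 fold changes below 0, the sums did not show the direction of most of these markers. Monocyte markers (7 genes) summed to 1843 to 2645, 843 to 1259, 2288 to 2831 and 775 to 1301 FPKM. B cell markers (10 genes) summed to 591 to 1227, 283 to 401, 730 to 1004 and 172 to 292 FPKM, and T cell markers (10 genes) to 135 to 145, 29.3 to 33.7, 82.9 to 106 and 16.9 to 32.9 FPKM. Erythroid markers (7 genes) reached 2226 FPKM in wild type LPS 2 and 1886 FPKM in knockout LPS 1, against at most 330 FPKM in the other 10 libraries. Mast cell markers (7 genes) summed to 293 to 903 FPKM and natural killer cell markers (7 genes) to 7.88 to 33.4 FPKM over all libraries. No marker was at 0 in every library, and the part of cell makeup in the results below was not tested. In such mixed samples fewer cells of a type and less RNA per cell cannot be told apart.

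The ribosomal protein genes made up between 11.9% and 16.7% of all FPKM in a library. The share was 14.8% ± 2.31 (SD, n = 3) in wild type with PBS, 15.4% ± 1.02 with LPS, 13.7% ± 0.585 in knockout with PBS and 13.8% ± 1.90 with LPS. Groups overlapped in both comparisons of treatment and both comparisons of genotype, and both the highest library (wild type PBS replicate 3) and the second lowest (wild type PBS replicate 2, 12.2%) came from the same group.

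Core genes had a median mean level of 551 FPKM, against 8.93 FPKM for all 9841 genes tested, and 43 of the 100 genes with the highest mean were core genes. Genes were tested when their mean over the 12 libraries was at least 1 FPKM, which 84 of the 87 passed. Rpl39l, Rpl3l and Rpl10l did not pass. These are copies used mainly outside somatic blood cells, in testis or muscle, and Rpl10l was listed at 0 in every library.

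Levels differed widely among the genes. The highest means were those of Rps29 (2373 FPKM), Rplp1 (1693), Rpl41 (1614), Rps23 (1494) and Rps27 (1488). Rps29 is a small zinc-binding protein of the small subunit, and Rpl41 is the smallest ribosomal protein known. Median levels were 488 FPKM for the large subunit and 725 FPKM for the small subunit, and within each class the highest and lowest mean differed 51.2-fold and 31.2-fold. The lowest tested means belonged to Rpl32l (3.65 FPKM), Rps27l (18.7), Rps19bp1 (19.2), Rpl29 (31.5) and Rps27rt (43.2), so that Rpl29 was the lowest core gene. FPKM divides by transcript length, and the longest coding transcript had a median of 910 bases in the 82 ribosomal protein genes with one annotated, against 3074 bases in 9424 other tested genes.

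The P stalk, which recruits elongation factors to the ribosome, holds several copies of Rplp1 and Rplp2 on 1 copy of Rplp0. Rplp0 read 1031 to 1662 FPKM, Rplp1 1372 to 1931 FPKM and Rplp2 731 to 1069 FPKM over the 12 libraries. Rplp2 was below Rplp0 in every library, so these levels do not follow the order of copies in the stalk. With LPS the log2 fold changes were 0.33 ± 0.15 and 0.21 ± 0.15 for Rplp0, 0.08 ± 0.15 and 0.16 ± 0.15 for Rplp1, and 0.13 ± 0.14 and 0.30 ± 0.14 for Rplp2 in wild type and knockout (SE), none past the threshold by limma (lowest adjusted p 0.0757). Scaling turned the sign of Rplp1 in wild type (-0.02 with libraries scaled to the core genes), and median-of-ratios scaling brought Rplp0 past the threshold in both genotypes (limma adjusted p = 0.0125 and 0.0455) and Rplp2 in the knockout (0.0122). Rplp0 also passed in wild type without wild type LPS replicate 1 (limma adjusted p = 0.0497), and Rplp2 in the knockout without knockout LPS replicate 3 (0.0451).

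Core genes moved together from library to library. Apart from Rps2, Rps18 and Rpl29, 71 of the 73 core genes differed less than 2-fold between their highest and lowest library, with a median of 1.55-fold and a range from 1.32-fold (Rps9) to 2.11-fold (Rpl36). Over these 73 genes, 80.7% of the sum of squares of log2 values lay in 1 principal component and 78.2% in the plain mean over genes. The median SD over the 12 libraries was 0.197 on the log2 scale and 0.0760 once that mean was taken off, while 4497 other genes of at least 10 FPKM had a median SD of 0.320. Within groups the median SD was 0.184 for core genes and 0.175 for those other genes. Library wild type PBS 2 held the lowest value of 47 of the 76 core genes and knockout LPS 3 of 17, and the highest values lay in wild type PBS 3 (32 genes), wild type LPS 2 (20), knockout LPS 2 (14) and wild type LPS 3 (10). The common movement thus separated libraries of 1 group as much as it separated groups. Rps3, which lines the mRNA entry channel, followed the common mean most closely (residual SD 0.0301), and Rps27 (0.245), Rpl36 (0.243) and Rpl24 (0.200) departed from it most.

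**Figure D1:**
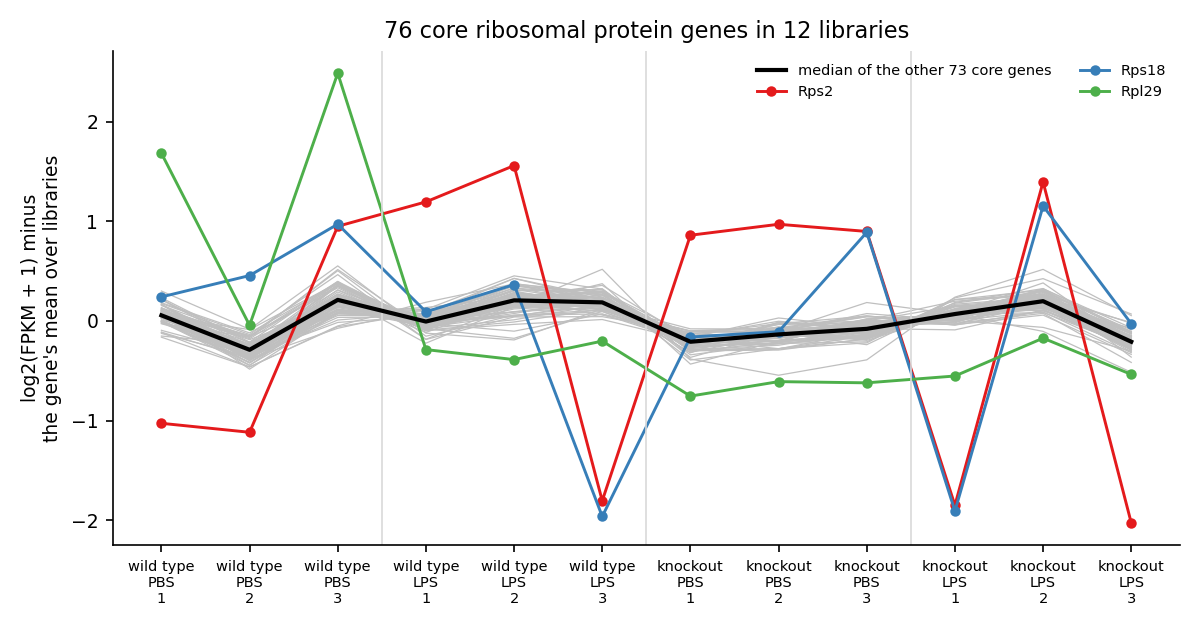
Level of each core gene in each library, as log2(FPKM + 1) minus the gene's own mean over the 12 libraries. Grey lines join the values of 73 genes, the black line is their median, and coloured lines show Rps2, Rps18 and Rpl29; replicates within a group have no order. The 73 genes form a narrow band, while Rps2 drops in 5 libraries of 3 groups, Rps18 in 1 library of each LPS group, and Rpl29 is high in wild type PBS 1 and 3.

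LPS against PBS in wild type raised 7 of the 84 tested genes and lowered 1. Among those that rose were the large-subunit genes Rpl24, Rpl27 and Rpl7a, the paralogs Rpl22l1 and Rpl7l1, and Rps19bp1, and Rpl29 fell. A gene counts as changed at an adjusted p under 0.05 (limma on log2(FPKM + 1), Benjamini-Hochberg over all 9841 genes). Among all genes tested 24.8% rose and 37.4% fell, so the ribosomal protein genes held fewer calls than the background in both directions. Their median log2 fold change was 0.14, against -0.11 for all genes, and 67 of 84 were above 0. That median ranged from 0.02 to 0.25 when 1 library was left out. In the knockout 5 genes rose, among them Rpl24, Rpl36, Rpl22l1 and Rps19bp1, and Rps27rt fell, against 19.9% higher and 33.3% lower among all genes. The median there was 0.16 against -0.12 for all genes, and 76 of 84 were above 0; with 1 library left out it ranged from 0.07 to 0.27. Single libraries moved these counts: 3 genes rose in wild type without wild type LPS replicate 2 and 4 without wild type PBS replicate 2 (where 2 fell), and in the knockout 13 rose without knockout LPS replicate 3, 9 without wild type PBS replicate 3, 8 without wild type PBS replicate 2, and 3 without wild type LPS replicate 3 or any other single knockout library. The 1 lower call in the knockout was lost without knockout PBS replicate 2 or 3 or LPS replicate 3.

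Intervals were taken gene by gene on the deposited scale, and none of them is an interval for a common response. The 95% interval of the log2 fold change, with a median half-width of 0.34, lay between -1 and 1 for 79 of the 84 genes in wild type and 80 in the knockout. The exceptions were Rpl29, Rps18 and Rps2 in both genotypes, Rps19bp1 and Rps27l in wild type, and Rpl36 in the knockout. On that scale a change of 2-fold or more in either direction was thus outside the interval of nearly every core gene, whereas small rises were not resolved.

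How many genes passed depended on the scaling. Scaling the libraries by the median of ratios over all genes moved the median log2 fold change of all genes from -0.11 to -0.0060 in wild type and from -0.12 to -0.0028 in the knockout. With it, 23 ribosomal protein genes rose and 1 fell in wild type, against 31.0% higher and 31.7% lower among all genes, and 25 rose and 0 fell in the knockout, against 27.0% and 26.4%. All 7 and all 5 genes that rose on the deposited scale were among them. The median of the 84 genes was then 0.27 and 0.31. Scaling divides all genes of a library by 1 factor, so both medians shifted together. The gap between them therefore adds no second line of evidence. Of the 84 genes 28.6% were called in wild type (higher or lower) and 29.8% in the knockout (all higher). Of all genes 62.8% and 53.4% were called in either direction under this scaling. For higher calls alone, 23 and 25 of the 84 genes stand beside 31.0% and 27.0% of all genes. That share was below the background in wild type and close to it in the knockout.

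**Figure D2:**
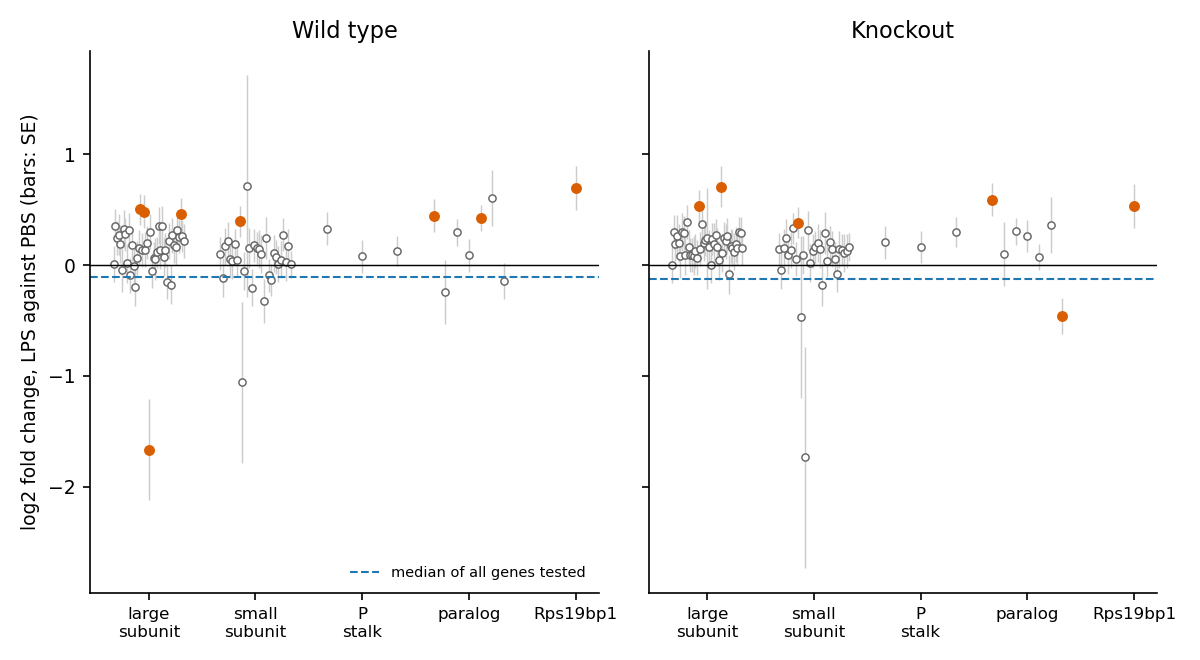
Log2 fold change of LPS against PBS for each of the 84 tested genes by role, in wild type (left) and knockout (right), with bars of 1 SE. Filled orange points have an adjusted p under 0.05, open points do not, and the dashed line is the median of all genes tested. Most genes lie in a narrow band just above 0, with Rpl29 the only filled point below 0 in wild type and Rps27rt in the knockout.

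Rpl24 (chr16:55966275-55971435, plus strand, GRCm38), a large-subunit protein at the bridge to the small subunit that joins late in assembly, was called in both genotypes. It read 444, 361 and 480 FPKM in wild type with PBS and 567, 644 and 605 FPKM with LPS. The knockout libraries read 379, 410 and 427 FPKM with PBS and 584, 668 and 522 FPKM with LPS. Every LPS library lay above every PBS library of either genotype. The log2 fold change was 0.51 ± 0.14 (SE; limma adjusted p = 0.00821) in wild type and 0.54 ± 0.14 (limma adjusted p = 0.00716) in the knockout.

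Rpl27 (chr11:101442298-101445529, plus strand) and Rpl7a (chr2:26910764-26913318, plus strand) passed in wild type on the deposited scale. Rpl27 read 314, 261 and 322 FPKM with PBS and 368, 464 and 424 FPKM with LPS in wild type, a log2 fold change of 0.48 ± 0.15 (SE; limma adjusted p = 0.0145). Knockout libraries read 263, 312 and 287 FPKM with PBS and 386, 425 and 315 FPKM with LPS, with 0.38 ± 0.15 (limma adjusted p = 0.0520). Both genotypes were without overlap between treatments, and the difference between the 2 effects was -0.11 ± 0.21 (interaction, limma adjusted p = 0.89). Rpl7a, a large-subunit protein, read 285, 224 and 296 FPKM with PBS and 327, 415 and 364 FPKM with LPS in wild type (0.46 ± 0.14, limma adjusted p = 0.0145). Its knockout values were 260, 294 and 271 FPKM with PBS and 347, 364 and 305 FPKM with LPS, with 0.30 ± 0.14 (limma adjusted p = 0.0978). The treatments did not overlap there either, and the interaction was -0.16 ± 0.20 (limma adjusted p = 0.82). With median-of-ratios scaling both genes passed in the knockout too (limma adjusted p = 0.00783 for Rpl27 and 0.0130 for Rpl7a), and Rpl27 also without wild type PBS replicate 2 (0.0401), wild type PBS replicate 3 (0.0424) or knockout LPS replicate 3 (0.0180). Without wild type LPS replicate 2, Rpl27 and Rpl7a lost their calls in wild type (limma adjusted p = 0.0601 and 0.0631), and Rpl7a also lost it without wild type PBS replicate 2 (0.0510).

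Rpl36 (chr17:56613416-56614243, plus strand), a small large-subunit protein, had the largest rise of a core gene in the knockout. It read 72.6, 64.7 and 72.1 FPKM with PBS and 112, 136 and 98.5 FPKM with LPS, a log2 fold change of 0.71 ± 0.18 (SE; limma adjusted p = 0.00695). In wild type it read 103, 67.5 and 101 FPKM with PBS and 103, 105 and 136 FPKM with LPS, with overlap and 0.35 ± 0.18 (limma adjusted p = 0.114). Median-of-ratios scaling brought it past the threshold there (0.48, limma adjusted p = 0.0335). The interaction was 0.36 ± 0.26 (limma adjusted p = 0.67), so a difference between the genotypes was not shown. Rpl36 and Rpl22l1 kept their calls in the knockout when each library was scaled to the core genes themselves (limma adjusted p = 0.0139 and 0.0214), which asks whether a gene rose relative to the other ribosomal protein genes. Under that scaling Rpl24 (0.0576) and Rps19bp1 (0.149) lost theirs in the knockout, and in wild type Rpl22l1 (0.0590), Rpl27 (0.0644), Rpl7a (0.0797) and Rpl7l1 (0.161) lost theirs, all by limma adjusted p.

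**Figure D3:**
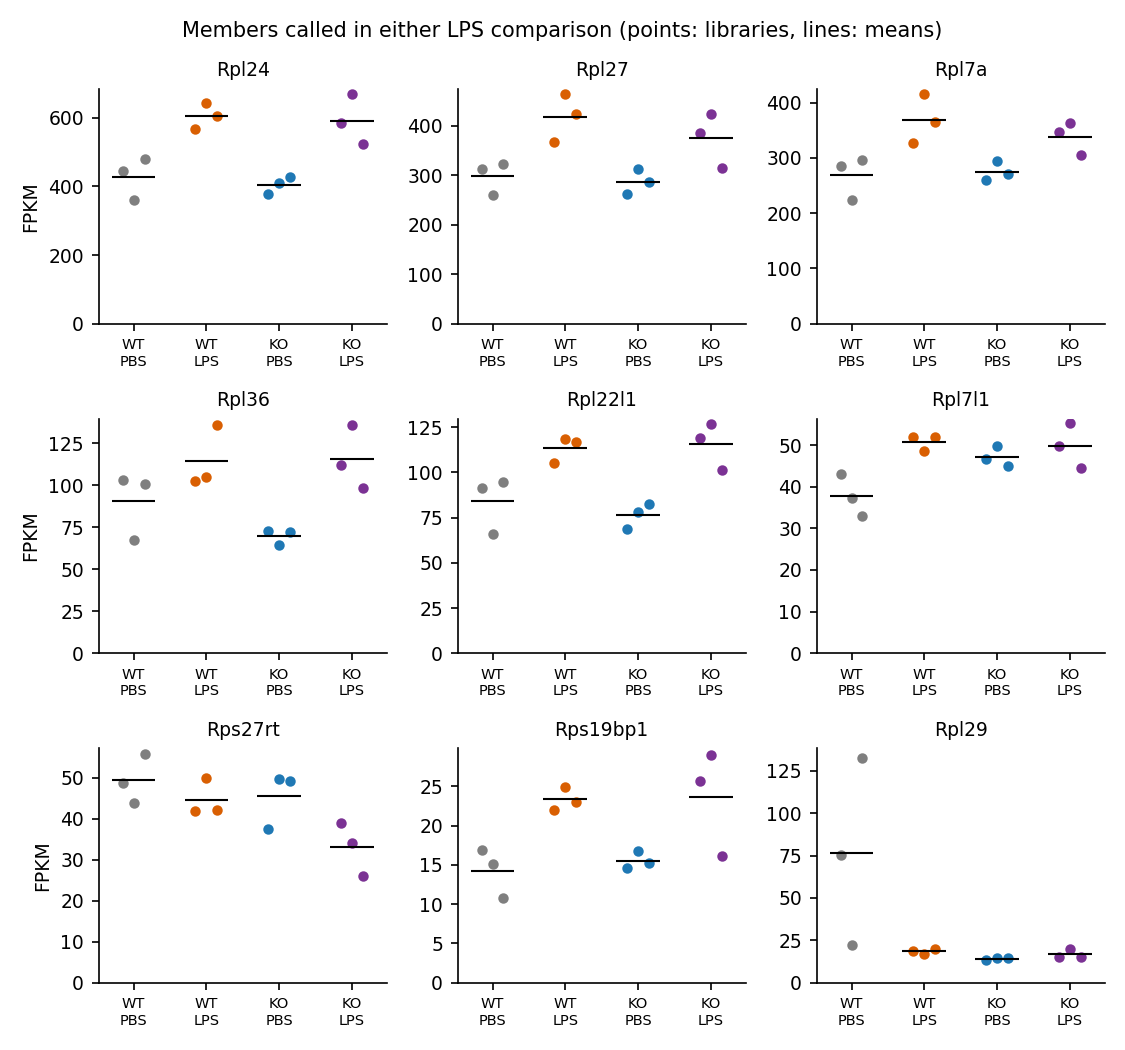
FPKM of 9 genes called in either LPS comparison, 1 point per library and a line at the group mean (linear axes from 0; WT, wild type; KO, knockout). LPS points lie above PBS points in both genotypes for Rpl24, Rpl27, Rpl7a and Rpl22l1, and the 3 wild-type PBS libraries are the highest for Rpl29.

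Rpl29 (chr9:106429454-106431568, plus strand), a basic protein of the large subunit that also binds heparin, stood apart. It read 75.5, 22.1 and 132 FPKM in wild type with PBS, 18.5, 17.2 and 19.7 FPKM in wild type with LPS, 13.1, 14.6 and 14.5 FPKM in knockout with PBS and 15.2, 20.1 and 15.4 FPKM in knockout with LPS. Only 2 of the 3 wild-type PBS libraries were far above the rest, and the third lay just above the highest of the other 9. It fell with LPS in wild type by 1.67 on the log2 scale (SE 0.45; limma adjusted p = 0.00771) and read 0.24 ± 0.45 in the knockout (limma adjusted p = 0.68). Knockout against wild type under PBS was -2.04 ± 0.45 (limma adjusted p = 0.178) and the interaction 1.91 ± 0.64 (limma adjusted p = 0.43). Without wild type PBS replicate 2 these became -2.74 (limma adjusted p = 0.000546) and 2.62 (limma adjusted p = 0.0156). Rpl29 lies on the same chromosome as Ltf, 4.59 Mb away. In wild type with LPS Rpl29 was as low as in the knockout, with -0.13 ± 0.45 between the genotypes (limma adjusted p = 0.97).

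Rps2 (chr17:24718116-24721929, plus strand) and Rps18 (chr17:33951999-33956001, minus strand), of the small subunit, varied more than the core genes other than Rpl29, and not by group. Rps2, which lines the mRNA entry channel beside Rps3, read 140, 131 and 554 FPKM in wild type with PBS and 657, 845 and 81.3 FPKM with LPS. In the knockout it read 521, 562 and 534 FPKM with PBS and 78.8, 754 and 69.6 FPKM with LPS. The 5 low libraries thus came from 3 of the groups, and the lowest and highest library differed 12.2-fold. Rps18, in the head of the small subunit, read 481, 558 and 799 FPKM in wild type with PBS and 434, 524 and 104 FPKM with LPS. Knockout values were 364, 378 and 755 FPKM with PBS and 108, 907 and 399 FPKM with LPS. Its 2 lowest libraries, wild type LPS 3 and knockout LPS 1, were also among the low libraries of Rps2, and its range was 8.74-fold. LPS log2 fold changes were 0.71 ± 0.999 and -1.74 ± 0.999 for Rps2 and -1.06 ± 0.73 and -0.47 ± 0.73 for Rps18 in wild type and knockout (SE; limma adjusted p from 0.163 to 0.611). Rps2 passed in the knockout once knockout LPS replicate 2 was left out (-2.85, limma adjusted p = 0.0237), and Rps18 turned positive there without knockout LPS replicate 1 (0.36). The other 5 tested genes of the list on chromosome 17 (Rpl10a, Rpl36, Rpl7l1, Rps10 and Rps28) varied 1.41-fold to 2.11-fold.

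Several ribosomal protein genes have a related second gene or a retrocopy. The level of such a copy relative to its parent gives a measure within a library that scaling cannot change. Rpl32l is annotated as a processed pseudogene and Rpl37rt as a transcribed processed pseudogene. Of the 10 paralogs 7 reached a mean of 1 FPKM. Reads of near-identical copies (Rps27rt with Rps27, Rpl37rt with Rpl37, Rpl36al with Rpl36a, Rpl32l with Rpl32) may have been split between them, so their values are uncertain. Copies stood at 0.341% (Rpl32l), 0.773% (Rps27l), 2.83% (Rps27rt), 4.19% (Rpl7l1), 16.2% (Rpl37rt) and 46.1% (Rpl36al) of the parent's FPKM in wild type with PBS on average. Rpl22l1 was the only one of the 7 above its parent, in all 12 libraries.

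Rpl22l1 (chr3:28805436-28807424, plus strand) can take the place of Rpl22 in the ribosome, and Rpl22 is known to hold its level down in other cells. Rpl22l1 read 91.6, 65.7 and 94.6 FPKM in wild type with PBS and 105, 118 and 117 FPKM with LPS. In the knockout it read 68.7, 78.02 and 82.3 FPKM with PBS and 119, 127 and 101 FPKM with LPS. All LPS libraries lay above all PBS libraries, and the log2 fold change was 0.45 ± 0.15 (SE; limma adjusted p = 0.0225) in wild type and 0.59 ± 0.15 (limma adjusted p = 0.00643) in the knockout. In wild type it did not pass with PBS replicate 2, LPS replicate 2 or LPS replicate 3 of that genotype left out (limma adjusted p = 0.0855, 0.0659 and 0.0655). Rpl22 read 67.3 ± 16.8 FPKM (SD, n = 3) in wild type with PBS, 57.7 ± 5.63 with LPS, 56.2 ± 4.90 in knockout with PBS and 60.2 ± 9.46 with LPS.
Rpl22l1 as a percent of Rpl22 was therefore 145, 124 and 110 in wild type with PBS against 186, 224 and 183 with LPS, and 136, 134 and 138 in the knockout with PBS against 180, 195 and 205 with LPS. The log2 ratio rose by 0.64 and by 0.50 without overlap, each with an exact permutation p of 0.1 (two-sided), the smallest that 3 against 3 libraries allow, and an adjusted p of 0.35 over 28 such comparisons. Between genotypes the ratio differed by 0.11 under PBS and by -0.03 under LPS, with overlap.

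**Figure D4:**
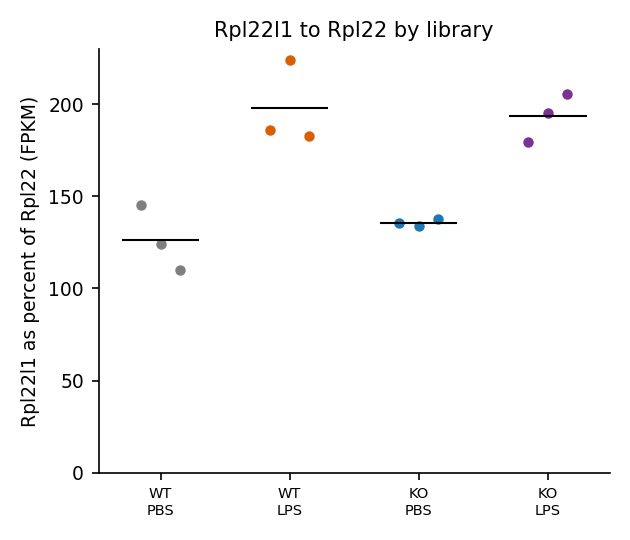
Rpl22l1 as a percent of Rpl22 (both in FPKM), 1 point per library with a line at the group mean. The 6 LPS libraries lie between 180 and 224, above the 6 PBS libraries, which lie between 110 and 145.

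With 3 against 3 libraries none of the 28 comparisons of a copy with its parent could have an exact permutation p under 0.1. Groups did not overlap in 8 of the 28, each with an adjusted p of 0.35 by exact permutation. The comparisons reuse the same groups, and Rps27l and Rps27rt share the parent Rps27, so they are not independent. No such share was taken over other gene pairs, so the count is not a result about these copies. The values that follow, from those besides Rpl22l1, are a description. The log2 ratio of Rps27l, a p53 target, to Rps27 was higher by 0.93 with LPS in wild type and by 0.59 in knockout than in wild type under PBS. That of Rpl7l1, a nucleolar assembly protein rather than a ribosome component, to Rpl7 was higher by 0.37 in knockout than in wild type under PBS. Rps27rt to Rps27 was lower with LPS in the knockout (-0.28) and in knockout than in wild type under LPS (-0.32). Rpl36al to Rpl36a was higher by 0.19 with LPS in the knockout.

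By level rather than ratio, Rpl7l1 (chr17:46773907-46782672, minus strand) rose with LPS in wild type. It read 42.9, 37.4 and 32.9993 FPKM with PBS and 51.9, 48.6 and 51.9 FPKM with LPS in wild type (log2 fold change 0.43 ± 0.12, SE; limma adjusted p = 0.00773). In the knockout it read 46.7, 49.7 and 44.98 FPKM with PBS and 49.7, 55.3 and 44.5 FPKM with LPS (0.07 ± 0.12; limma adjusted p = 0.61). The 3 wild-type PBS libraries were the lowest of the 12, and the interaction was -0.35 ± 0.16 (limma adjusted p = 0.53). Rps27rt (chr9:114982366-114982739, minus strand) read 37.6, 49.7 and 49.3 FPKM in knockout with PBS and 38.9, 34.2 and 26.2 FPKM with LPS, against 48.9, 43.8 and 55.8 FPKM and 42.0, 49.9 and 42.2 FPKM in wild type. It fell by 0.46 ± 0.16 in the knockout (limma adjusted p = 0.0342) with overlap of 1 library, and the call was lost without knockout LPS replicate 3 (-0.30; limma adjusted p = 0.131), without either knockout PBS replicate 2 (0.112) or 3 (0.110), without knockout LPS replicate 2 (0.0582), and under median-of-ratios scaling (-0.32; limma adjusted p = 0.106).

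Rps19bp1 (chr15:80260615-80264315, minus strand), known to raise the activity of the deacetylase Sirt1, read 16.8, 15.1 and 10.8 FPKM in wild type with PBS and 22.0, 24.9 and 23.1 FPKM with LPS. In the knockout it read 14.7, 16.7 and 15.3 FPKM with PBS and 25.7, 29.0 and 16.1 FPKM with LPS. It rose by 0.69 ± 0.20 (SE; limma adjusted p = 0.00993) in wild type without overlap and by 0.53 ± 0.20 (limma adjusted p = 0.0408) in the knockout with overlap. Its knockout call did not hold with any wild type LPS library left out (limma adjusted p = 0.0523 to 0.0543) or any knockout library but LPS replicate 3 (0.0607 to 0.163).

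Knockout against wild type called none of the 84 genes by limma under PBS or under LPS, and the interaction of genotype and LPS called none. All genes tested gave 0.112% called under PBS, 0% under LPS and 0.0406% for the interaction. At an unadjusted p under 0.05 there were 2 of the 84 under PBS (Rpl29 and Rpl7l1), 1 under LPS (Rps27rt) and 1 for the interaction (Rpl29), against 897, 744 and 946 of all 9841 genes. The log2 fold change was below 0 for 79 of the 84 genes under PBS and for 75 under LPS, with medians of -0.15 and -0.11 against -0.02 and -0.04 for all genes. With 1 library left out the medians ranged from -0.29 to -0.04 under PBS and from -0.20 to 0.02 under LPS, so the second changed sign. Because these genes move together in a library, the 84 signs are not independent. The intervals lay between -1 and 1 for 81 of 84 genes in each genotype comparison, with Rpl29, Rps18 and Rps2 outside. Under PBS the knockout libraries stood at 0.864, 0.910 and 0.957 of the typical core level (the geometric mean over the 76 genes relative to that over all libraries), and the wild-type libraries at 1.05, 0.818 and 1.20, on both sides of them.

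Some core ribosomal proteins have symbols that do not follow the pattern. Rpsa, Fau and Rack1, which encode a pair of small-subunit proteins and the signalling scaffold bound to the small subunit, had mean levels of 882, 431 and 897 FPKM. None of the 3 was called by limma with LPS in either genotype, with log2 fold changes from -0.26 (Fau in wild type) to 0.28 (Rack1 in the knockout).

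The genes that build ribosomes had larger changes than the genes that make them up. Of 32 genes for ribosome assembly and rRNA synthesis, with Myc counted among them, 31 rose with LPS in wild type and 31 in the knockout. None was lower, and the medians were 1.26 and 0.96. Among all genes tested 24.8% rose and 37.4% fell in wild type, and 19.9% rose and 33.3% fell in the knockout. Ncl, the nucleolar protein nucleolin, went from 66.1 ± 20.3 to 301 ± 32.3 FPKM in wild type (SD, n = 3), a log2 fold change of 2.21 (limma adjusted p = 1.30e-05), and from 78.9 ± 2.01 to 259 ± 65.8 FPKM in the knockout (1.67; limma adjusted p = 0.000111). Npm1, a chaperone of pre-ribosomes, went from 183 ± 27.6 to 635 ± 59.9 FPKM in wild type (1.80; limma adjusted p = 8.76e-06). Nop58, a core protein of the box C/D particles that guide rRNA methylation, went from 39.6 ± 12.2 to 138 ± 10.2 FPKM (1.82; limma adjusted p = 3.81e-05). In the knockout Myc went from 36.3 ± 5.90 to 127 ± 32.5 FPKM (1.76; limma adjusted p = 4.14e-05) and Rrp9, which binds the U3 particle, from 19.5 ± 0.927 to 56.6 ± 13.5 FPKM (1.46; limma adjusted p = 0.000111). None of the 32 was called in the interaction, where 30 of 32 values were below 0 (median -0.35, 6 at an unadjusted p under 0.05), against 5231 of all 9841 genes below 0 (946 at an unadjusted p under 0.05). The 32 values share the same libraries, so their signs are not independent, and a weaker response in the knockout was not shown.

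Of 22 initiation and elongation factors 12 rose and 1 fell in wild type, and 9 rose and 1 fell in the knockout, with medians of 0.51 and 0.32. In all 59.1% and 45.5% of them were called, against 62.2% and 53.2% of all genes. By direction, 24.8% of all genes rose and 37.4% fell in wild type, and 19.9% rose and 33.3% fell in the knockout. The calls among these factors were thus mostly rises, unlike those of all genes. Eif4e, which binds the mRNA cap, went from 9.68 ± 2.41 to 22.6 ± 1.25 FPKM in wild type (1.17; limma adjusted p = 8.84e-05) and from 12.1 ± 0.676 to 20.8 ± 2.999 FPKM in the knockout (0.73; limma adjusted p = 0.00264). Eif5a, which relieves stalled elongation, rose by 0.99 and 0.71 on the log2 scale (limma adjusted p = 0.000382 and 0.00415), and Eif2s1 by 0.99 in wild type (limma adjusted p = 0.000332). The helicase Eif4a2 fell by 0.68 in the knockout (limma adjusted p = 0.000329). Mitochondrial ribosomal proteins, the separate set that serves the mitochondrial ribosome, had 43 of 77 higher and 5 lower in wild type. In the knockout 37 were higher and 3 lower, and the medians were 0.34 in wild type and 0.36 in the knockout. The share called in either direction was 62.3% and 51.9%, against 62.2% and 53.2% of all genes. Among all genes 24.8% and 19.9% were higher.

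Genes that control the translation of ribosomal protein messages moved in both directions. Of 14 tested genes of mTORC1 signalling and cap-dependent control 6 rose and 1 fell in wild type, and 4 rose and 1 fell in the knockout, which is 50.0% and 35.7% called against 62.2% and 53.2% of all genes. By direction, 24.8% of all genes rose and 37.4% fell in wild type, and 19.9% rose and 33.3% fell in the knockout. Larp1, which binds the pyrimidine tract, went from 33.3 ± 6.35 to 90.7 ± 4.35 FPKM in wild type (1.44; limma adjusted p = 2.07e-05) and from 33.4 ± 3.46 to 82.1 ± 13.2 FPKM in the knockout (1.27; limma adjusted p = 6.65e-05). Eif4ebp1, a repressor of Eif4e, rose by 0.82 and 0.58 (limma adjusted p = 0.00289 and 0.0233), and Eif4ebp2 fell by 0.68 in wild type (limma adjusted p = 0.00217). Pdcd4, which inhibits the initiation helicase, rose in the knockout by 1.04 (limma adjusted p = 0.000804). Under PBS it was lower in knockout (17.1 ± 1.59 FPKM) than in wild type (42.4 ± 6.81 FPKM), at -1.25 (limma adjusted p = 0.0393). That comparison called 0.112% of all genes as deposited and 0 of the 9841 with libraries scaled to the 76 core genes, so the call depended on the scaling. In wild type with LPS Pdcd4 read 40.6 ± 2.41 FPKM. None of the 14 genes was called in the interaction, so a difference between the genotypes in the LPS response was not shown. Of Trp53, Mdm2 and their partners (4 genes), through which free ribosomal proteins are known to signal, Trp53 alone was called, at 1.03 and 1.09 (limma adjusted p = 0.000207 and 0.000216).

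**Figure D5:**
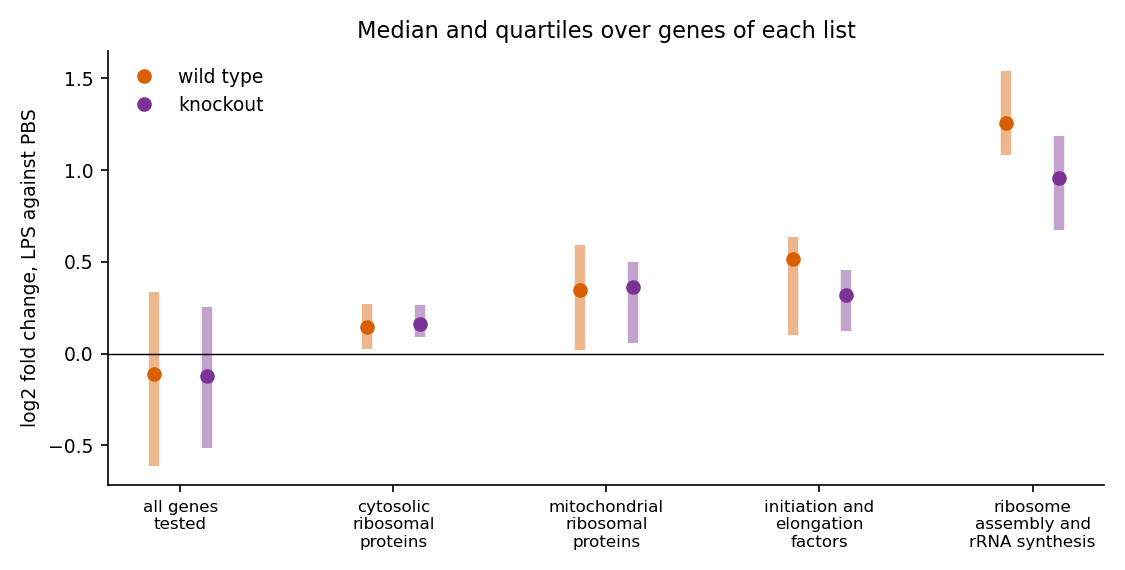
Log2 fold change of LPS against PBS over the genes of 5 sets, in wild type and knockout. Points are medians over genes and bars run from the lower to the upper quartile over genes, not an error. Cytosolic ribosomal proteins sit at 0.14 and 0.16, and ribosome assembly genes at 1.26 and 0.96.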

How the data were processed

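Total RNA of peritoneal lavage cells was sequenced in 12 libraries, 3 in each of 4 groups, and groups and replicate numbers follow the codes and characteristics in the labels; the titles of the knockout libraries also speak of wild-type mice. For each library the deposited file pairs symbols with 1 value of unstated unit. The deposited values were taken as FPKM, which the authors would have made by scaling fragments to transcript length and library size, because they are not whole and Cufflinks appears in the submitters' processing notes. TopHat, HTSeq, DESeq and the GRCm38 genome are also named for the authors' processing, per the submitters' processing notes, which give no version, role or strand setting. Of 21878 rows, 27 with a date in place of a symbol were left out.

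Log2(FPKM + 1) was fitted with limma 3.58.1 (R 4.3.3; trend and robust options) for the 9841 genes whose mean reached 1 FPKM, with 4 group means, 8 residual degrees of freedom and Benjamini-Hochberg adjustment within each of 5 contrasts (threshold 0.05). This scale understates the fold of low genes. The fit was tested on simulated data. Paralog ratios were compared by exact permutation. Positions come from GENCODE vM21 (all 87 symbols matched) and starts from RefSeq (GRCm38.p6), which lists none for 20 of the genes. The members, lists and rules were chosen with earlier results of these data known. Some genes are not reported here by name, though counts include them. Otherwise named were all called genes (up to 12 per contrast), the 5 highest and 5 lowest, the P stalk, paralogs with parents, and up to 3 called genes per pathway list and contrast; Rps2, Rps18 and the genes departing most from or following the common mean were added after their values were seen. Alternatives were another pseudocount, no filter, 3 scalings, fits of single contrasts, the replicate number as a block and leaving out each library. Same-numbered libraries did not deviate together (5 of 18 pairs with a correlation over 0.1), so the numbers were not treated as pairs.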

Additional observations from a re-analysis of the deposited data

How the results depend on the processing

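In wild type, genes higher with LPS were 7 as deposited, 23 with median-of-ratios scaling, 3 and 1 when libraries were scaled to 76 or 73 core genes (the second without Rps2, Rps18 and Rpl29, chosen after seeing the data), 4 when only the 2 groups entered the fit, and 3 to 10 when 1 library was left out (3 without wild type LPS replicate 2, 4 without wild type PBS replicate 2). Lower genes were 1, 3 without the filter (Rpl29, Rpl39l and Rpl3l), and 1 to 2 with 1 library left out (2 without wild type PBS replicate 2). In the knockout, higher genes were 5 as deposited, 25 with median-of-ratios scaling, 2 and 2 under the core scalings, and 3 to 13 with 1 library left out (13 without knockout LPS replicate 3, 9 without wild type PBS replicate 3, 8 without wild type PBS replicate 2, 3 without wild type LPS replicate 3 or any other knockout library); lower genes were 1, and 0 with median-of-ratios scaling, with only the 2 groups or without knockout PBS replicate 2 or 3 or LPS replicate 3. Median-of-ratios scaling without wild type PBS replicate 3, added after seeing the data, gave 39 higher in wild type (median 0.37) and 31 higher and 0 lower in the knockout. With 1 library left out, genes lower in knockout under PBS and higher in the interaction numbered 0 to 1, the 1 being Rpl29 without wild type PBS replicate 2.

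With the replicate block, 7 genes rose and 1 fell in wild type and 4 rose and 0 fell in the knockout; 4 of 12 libraries correlated best with their own number, so the block has no support as a pairing, and it left the other counts within 1.5 times. Without the 50 highest other genes in the denominator the shares were 19.1%, 20.5%, 17.9% and 19.4% in wild type with PBS and LPS and knockout with PBS and LPS. Signs turned for Rplp1 with LPS (-0.0204 and -0.0527 in wild type under the scalings to 76 and 73 core genes, -0.0105 in the knockout under the latter; -0.0570 to 0.16 with 1 library left out in wild type), Rplp2 in wild type (-0.0052 with 73 genes), Rpl7l1 in the knockout (-0.0651, -0.10; -0.0022 to 0.15 with 1 library left out), Rps27rt in wild type (0.0577, without wild type PBS replicate 3 and median-of-ratios scaling) and the Rpl32l ratio between genotypes under PBS (-0.0343 with a pseudocount of 0.1). Rps18 with 1 library left out ranged from -1.17 to 0.36 for LPS in the knockout, -0.49 to 1.07 between genotypes under LPS and -0.14 to 1.41 in the interaction. The cause of these changes was not tested. Read depth is unknown, and 3 libraries per group with a median SE of 0.16 for these genes limit what can be called.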

Other observations

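The genes that varied most like Rps2 and Rps18 over the 12 libraries were mostly on the same chromosome, a comparison made after their values were seen. Of the 10 tested genes with the highest Pearson correlation of log2(FPKM + 1) with Rps2, 8 lie on chromosome 17, and so do 8 of the 10 for Rps18, while 5.30% of the 9549 tested genes with a position lie there; the 12 points of each correlation share libraries and scaling. H2-T23, a nonclassical MHC class I gene (r = 0.988 with Rps18), read 18.5 FPKM in wild type LPS 3 and 19.1 FPKM in knockout LPS 1, the lowest libraries of Rps18, and 164, 126 and 173 FPKM in its 3 highest, wild type PBS 3, knockout PBS 3 and knockout LPS 2. H2-Eb1, a class II gene of antigen-presenting cells (r = 0.962), read 9.12 and 7.72 FPKM in the same 2 low libraries and 112 to 595 FPKM in the other 10. With Rps2, the mast cell and basophil protease Prss34 (r = 0.926) read 0.0349 to 0.399 FPKM in the 5 libraries low in Rps2 and 1.401 to 3.04 FPKM in the other 7.

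For Rpl29 none of the 10 genes most alike lies on its chromosome 9. They included 3 transcription factors of the circadian clock's output and feedback, Tef, Nr1d1 and Dbp (r = 0.879, 0.870 and 0.829). Dbp read 16.1 FPKM in wild type PBS 3, the library with the highest Rpl29, and 0.622 to 1.46 FPKM in the other 11. Nr1d1 read 21.5 FPKM there and 1.12 to 5.96 FPKM in the others.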
